A study of Macaca fascicularis with 64 samples.

Results

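The 9 genes SNAP25, STX1A, VAMP2, RAB3A, RAB27A, RIMS2, MLPH, EXPH5 and SYTL4, which act in the docking and fusion of secretory granules, were followed in single islet cells of cynomolgus monkeys (Macaca fascicularis), among 21041 macaque genes counted. All 9 were listed by symbol in the count files. The set was chosen with earlier results of these data known, and MLPH was taken to have been chosen by its measured difference between old and young β-cells, so that its age values are given below as a description, with no test. The type of a cell was set by the highest of 4 hormone counts, GCG (glucagon) for α-cells, INS (insulin) for β-cells, SST (somatostatin) for δ-cells and PPY (pancreatic polypeptide) for PP-cells, and none of the 9 genes is a hormone. Levels were compared between these 4 types and between 8 young and 8 old animals.

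Islet cells release hormone by fusing secretory granules with the plasma membrane. The SNARE proteins VAMP2 on the granule and STX1A and SNAP25 on the plasma membrane zip into a bundle that brings both membranes together. Before fusion, the small GTPases RAB3A and RAB27A mark the granule and bind effectors that tether it. RIMS2 is a scaffold at release sites that binds Rab3. SYTL4 (granuphilin) docks insulin granules through RAB27A and syntaxin, EXPH5 (Slac2-b) is another Rab27 effector, and MLPH (melanophilin, Slac2-a) is best known for linking RAB27A on pigment granules to the motor myosin Va.

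Young animals were between 4 and 6 years old and old animals between 18 and 21 years old, and each age group was made up of 4 females and 4 males. The labels name no strain, genotype, allele or agent, so the groups differed by age and sex alone as far as the labels go. Islets came from the tail of the pancreas, 1 monkey was processed per day, and single cells were picked by mouth pipette, so that the day and the animal cannot be told apart. Each animal gave 4 libraries of cells with plate barcodes and unique molecular identifiers (UMIs), and the animal was the replicate throughout.

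Of 6141 deposited barcodes, 5908 cells had over 800 genes and over 10000 UMIs, between 338 and 381 per animal, and they held between 20719761 and 34053080 UMIs of macaque genes per animal. The hormones gave 4503 α-cells (178 to 362 per animal), 1219 β-cells (11 to 194), 112 δ-cells and 74 PP-cells. Types were compared in animals with at least 5 cells of the type, so that all 16 animals gave α- and β-cells, 11 gave δ-cells (7 young, 4 old) and 6 gave PP-cells (2 young males, 4 old). Old female 2 alone gave 33 of the 74 PP-cells. The plate barcodes numbered 96 and each of them occurred in 63 to 64 of the 64 libraries, so that a cell was identified by its library and barcode together. Of the type markers, 8 of 10 were highest in α-cells, 8 of 10 in β-cells, 7 of 8 in δ-cells and 4 of 7 in PP-cells. Hormones of other types were present in each type. β-cells held 19155 counts per 1000000 UMIs (CPM) of GCG against 75940 CPM in α-cells, α-cells held 6836 CPM of INS against 60336 CPM in β-cells, and a UMI of each of these 2 hormones was found in 100% of the cells of every type. GCG stood at 25032 CPM in δ-cells and 34919 CPM in PP-cells, above its level in β-cells. The highest hormone was less than 2 times the next in 87 of 4503 α-cells, 130 of 1219 β-cells, 11 of 112 δ-cells and 16 of 74 PP-cells. Among markers of other cells, the acinar list (6 of 12 genes in the files) summed to 2279 CPM in the α-cells of young female 2 against a median of 2.77 CPM over all animals.

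The SNARE genes were measured first. SNAP25, the t-SNARE of regulated secretion, was found in 90.4% of α-cells and 96% of β-cells at median depths of 64894 and 74425 UMIs per cell. Thinned to 10000 UMIs per cell, the shares were 65.7% and 82.9%. In α-cells SNAP25 ran from 157 CPM in the lowest of 16 animals through a median of 194 CPM to 271.1 CPM in the highest, and in β-cells from 271.3 through 322 to 376 CPM. SNAP25 was higher in β-cells than in α-cells in 16 of 16 animals, and the ranges of both types did not overlap, although their ends all but met. The log2 fold change was 0.68 ± 0.16 (SE derived from the F statistic, n = 16 animals; edgeR quasi-likelihood test with the animal as a block, adjusted p = 0.000798). In δ-cells the median was 248 CPM (140 to 549 CPM, n = 11) and in PP-cells 145 CPM (54.1 to 254 CPM, n = 6). The order of the mean levels was β, δ, α and PP. SNAP25 was lower in PP-cells than in β-cells in 6 of 6 animals (log2 fold change −1.01 ± 0.25, edgeR adjusted p = 0.00348). The neighbours β and δ (adjusted p = 0.352), δ and α (0.0959) and α and PP (0.445) were not called by edgeR. PP- against δ-cells also stood short of the threshold (−0.75 ± 0.27, lower in 4 of 5 animals, edgeR adjusted p = 0.0574). DESeq2 called SNAP25 higher in δ-cells than in α-cells (adjusted p = 0.00598) and lower in PP-cells than in δ-cells (adjusted p = 0.0168).

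STX1A, the syntaxin of granule fusion, was found in 83.7% of α-cells, 85.1% of β-cells, 78.4% of PP-cells and 53.6% of δ-cells, the last at a lower median depth of 43776 UMIs per cell. After thinning, these shares were 52.9%, 56.1%, 48.6% and 32.1%. Its level was 127 CPM in the median animal for α-cells (72.2 to 209 CPM), 149 CPM for β-cells (75.9 to 221 CPM), 144 CPM for PP-cells (63.7 to 199 CPM) and 61.4 CPM for δ-cells (17.1 to 169 CPM). The ranges of all 4 types overlapped, and δ-cells were lowest. STX1A was lower in δ-cells than in α-cells in 9 of 11 animals (log2 fold change −0.97 ± 0.23, edgeR adjusted p = 0.00145) and lower than in β-cells in 9 of 11 (−1.15 ± 0.23, edgeR adjusted p = 0.000174). PP-cells exceeded δ-cells in 4 of 5 animals (1.17 ± 0.29, edgeR adjusted p = 0.00495), a call that was lost without old female 2 (adjusted p = 0.0707) and with every cell thinned (0.0597). Among β-, PP- and α-cells no pair was called, with adjusted p between 0.505 and 0.973.

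VAMP2, the v-SNARE of the granule, was called by edgeR in no pair of types. It was found in 77.6% of α-cells, 79.5% of β-cells, 64.3% of δ-cells and 71.6% of PP-cells. Thinned to 10000 UMIs the shares were 39.3%, 34%, 37.5% and 25.7%, so that the order of α- and β-cells turned. The median animal had 65.7 CPM in α-cells (42.4 to 95.8 CPM), 52.8 CPM in β-cells (38.6 to 72.5 CPM), 69.5 CPM in δ-cells (42.7 to 92.1 CPM) and 59.5 CPM in PP-cells (24 to 77.4 CPM). All 4 ranges overlapped. The smallest adjusted p was 0.214 for β- against α-cells, where 12 of 16 animals had the lower level in β-cells (log2 fold change −0.31 ± 0.18). DESeq2 called that pair (adjusted p = 0.00246), as did edgeR with at least 10 cells per animal (0.0436), and DESeq2 also called δ- against β-cells (adjusted p = 0.00729).

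**Figure D1:**
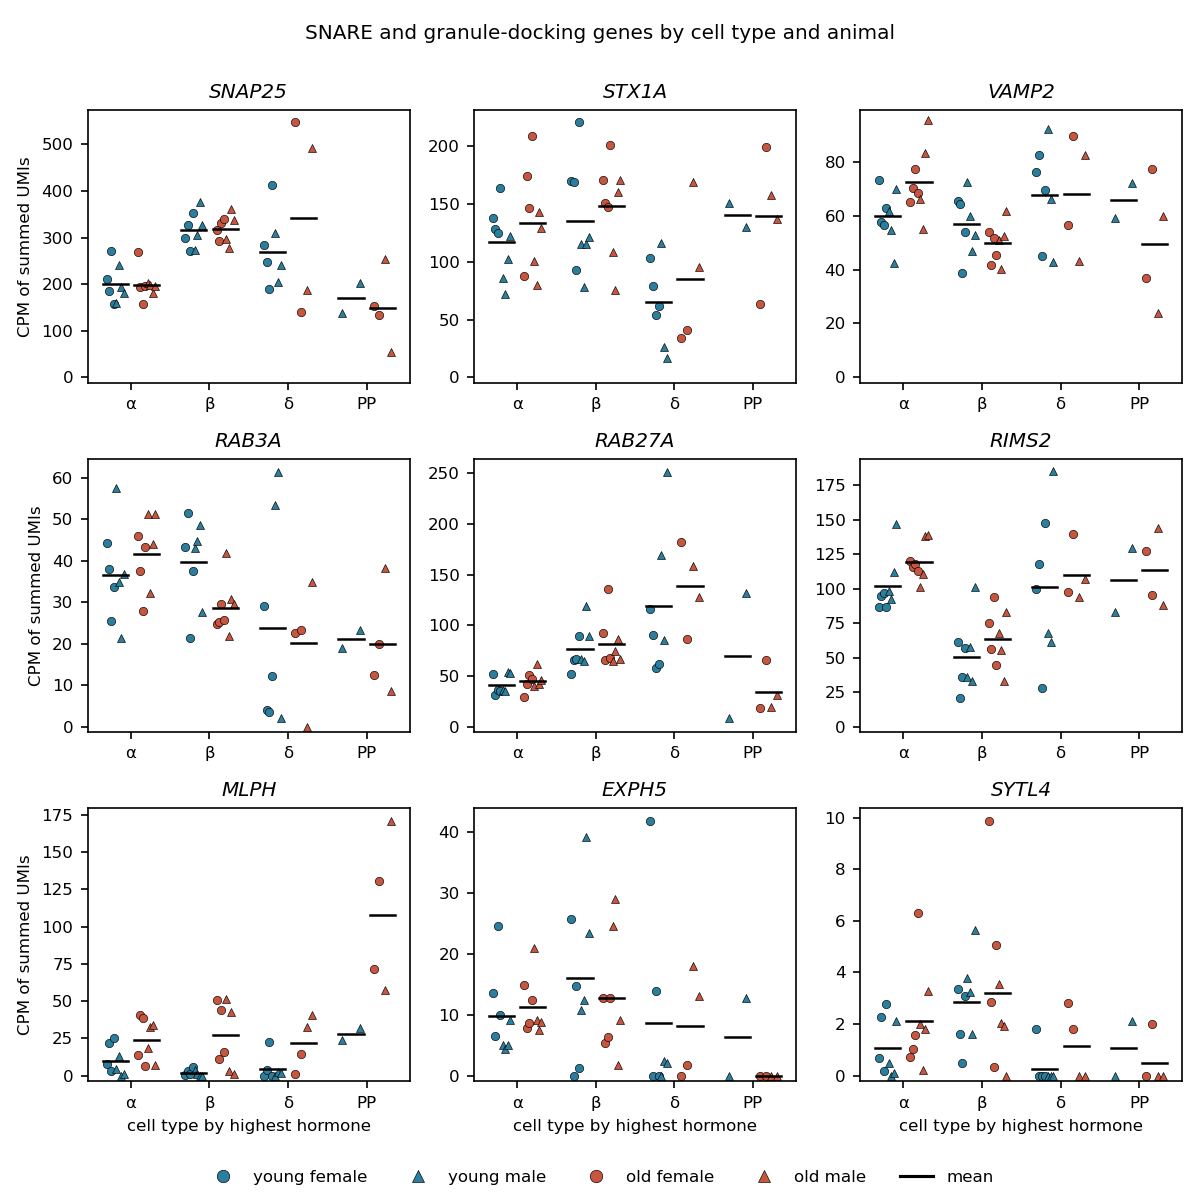
CPM of each gene in each animal (points; circles females, triangles males; blue young, red old) by cell type, with the mean of each age group as a bar. SNAP25 lies higher in β- than in α-cells in 16 of 16 animals, RAB27A lies higher in β- than in α-cells in 16 of 16 and in δ- than in α-cells in 11 of 11, RIMS2 by its mean is lowest in β-cells, and MLPH by its mean is highest in PP-cells.

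Of the Rab GTPases, RAB27A differed between types and RAB3A differed in 1 pair. RAB27A was found in 52.3% of α-cells, 69.1% of β-cells, 59.8% of δ-cells and 51.4% of PP-cells, or in 23%, 36.2%, 42.9% and 21.6% after thinning. The median animal had 41.8 CPM in α-cells (29 to 61.6 CPM), 67.5 CPM in β-cells (51.9 to 136 CPM), 116 CPM in δ-cells (57.4 to 252 CPM) and 25.2 CPM in PP-cells (8.07 to 132 CPM). RAB27A was higher in β-cells than in α-cells in 16 of 16 animals (log2 fold change 0.86 ± 0.22, edgeR adjusted p = 0.00196), and higher in δ-cells than in α-cells in 11 of 11 animals (1.5 ± 0.26, edgeR adjusted p = 1.47e-05). It was lower in PP-cells than in δ-cells in 5 of 5 animals (−1.59 ± 0.39, edgeR adjusted p = 0.00436). Young male 4, the highest in PP-cells, had only 2 δ-cells and is not among these 5. With at least 10 cells per animal, which kept PP-cells of 1 animal, the log2 fold change was −0.44. δ- against β-cells did not pass (0.63 ± 0.26, higher in 9 of 11 animals, edgeR adjusted p = 0.0735), although DESeq2 called it (adjusted p = 0.00121). PP- against β-cells did not pass either (−0.96 ± 0.37, lower in 4 of 6 animals, edgeR adjusted p = 0.0602). PP- and α-cells, next to each other at the low end, were not called (log2 fold change −0.10 ± 0.36, edgeR adjusted p = 0.909). Among PP-cells, young male 4 had 132 CPM and young male 1 had 8.07 CPM, from 62 and 3 UMIs.

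RAB3A was found in 49.8% of α-cells and 51.5% of β-cells, and in 31.3% of δ-cells and 35.1% of PP-cells. After thinning the shares were 21.5%, 20.3%, 14.3% and 17.6%, with β-cells below α-cells. The median animal had 37.8 CPM in α-cells (21.3 to 57.6 CPM), 30.3 CPM in β-cells (21.5 to 51.4 CPM), 22.6 CPM in δ-cells (0 to 61.4 CPM) and 19.4 CPM in PP-cells (8.54 to 38.3 CPM). δ-cells spread most, from no UMI in the 5 δ-cells of old male 2, which allows up to 10.8 CPM, to 61.4 CPM in young male 2. RAB3A was lower in δ-cells than in α-cells in 10 of 11 animals (log2 fold change −1.12 ± 0.38, edgeR adjusted p = 0.0257). That call was lost without young female 2 (adjusted p = 0.0609), without young female 3 (0.0639), with cells of over 2000 genes and 20000 UMIs (0.0712) and with at least 10 cells per animal (0.0792). No other pair of types passed, with adjusted p between 0.0735 and 0.867.

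RIMS2 was the member with the smallest adjusted p between β- and α-cells. It was found in 63.4% of α-cells, 49.2% of β-cells, 44.6% of δ-cells and 67.6% of PP-cells, and after thinning in 40.4%, 26.2%, 33% and 47.3%. α-cells ran from 86.4 CPM through a median of 111 CPM to 147 CPM, and β-cells from 20.9 through 56.6 to 101 CPM. RIMS2 was lower in β-cells than in α-cells in 16 of 16 animals (log2 fold change −1.02 ± 0.19, edgeR adjusted p = 2.9e-05). The ranges overlapped through young male 4 and old female 3, whose β-cells had 101 and 93.9 CPM. In δ-cells the median was 99.8 CPM (27.8 to 186 CPM) and in PP-cells 111 CPM (83.4 to 144 CPM). Both types lay above β-cells, δ-cells in 10 of 11 animals (0.82 ± 0.23, edgeR adjusted p = 0.00649) and PP-cells in 6 of 6 (0.94 ± 0.28, edgeR adjusted p = 0.0135). The PP-cell call was lost without old female 2 (adjusted p = 0.0534), old male 2 (0.0850) or young male 1 (0.0546), and where the highest hormone had to be at least 2 times the next (0.0585). α-, δ- and PP-cells were not told apart, with adjusted p between 0.578 and 0.905.

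The UMIs of MLPH were held by few cells. The gene was found in 23% of α-cells (95% exact binomial interval 21.8% to 24.3%), 23.8% of β-cells (21.4% to 26.3%), 11.6% of δ-cells (6.33% to 19%) and 50% of PP-cells (38.1% to 61.9%), and thinned to 10000 UMIs in 8.94%, 9.23%, 5.36% and 39.2%. The intervals cover counting error only. These shares pool ages that were mixed differently in each type, and 54 of the 74 PP-cells were from old animals. By age, the share was 15% in young PP-cells (3 of 20 cells, 3.21% to 37.9%), beside 15.3% in young α-cells, and 63% in old PP-cells (34 of 54, 48.7% to 75.7%), beside 31.3% in old α-cells. The 10% of α-cells with the most MLPH UMIs held 87.7% of all MLPH UMIs in α-cells, against 40.2% for SNAP25, and the share was 88.2% in β-cells, against 32.9% for SNAP25. For EXPH5, found in fewer cells, these shares were 98.5% and 93.6%.

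MLPH stood highest in PP-cells. The 6 animals had 24.2, 31.9, 57.5, 71.9, 131 and 171 CPM in PP-cells, against medians of 13.7 CPM in α-cells (0 to 41 CPM, n = 16), 3.57 CPM in β-cells (0 to 51.6 CPM, n = 16) and 2.36 CPM in δ-cells (0 to 40.6 CPM, n = 11). The 6 animals were 2 young males and 4 old animals, a mix of ages unlike that of the other types. Within these 6 the means were 81.2 CPM in PP-cells, 16.8 CPM in α-cells and 11.7 CPM in β-cells. PP-cells exceeded α-cells and β-cells in 6 of 6 animals and δ-cells in 5 of 5, although the ranges overlapped. The fits between types were not split by age. The log2 fold changes of PP-cells were 2.71 ± 0.76 against α-cells (edgeR adjusted p = 0.0221), 3.67 ± 0.79 against β-cells (edgeR adjusted p = 0.000638) and 3.05 ± 0.86 against δ-cells (edgeR adjusted p = 0.0143). These calls rested on few cells. Without old male 4 or young male 4 the call against α-cells was lost (adjusted p = 0.0615 and 0.0982), while the one against β-cells was made in each of the 16 fits that left out 1 animal. Of these fits, only those without 1 of the 6 animals with PP-cell sums took PP-cells out of the comparison. Where only cells with a highest hormone at least 2 times the next were kept, the calls against α-cells (adjusted p = 0.0764) and δ-cells (0.109) were lost, and with at least 10 cells per animal, which kept PP-cells of 1 animal, none of the 3 was made. No pair among α-, β- and δ-cells was called for MLPH (adjusted p between 0.232 and 0.773), and β- against α-cells was called without old female 1 (adjusted p = 0.0491). Of other cells' markers, the 11 ductal genes summed to a median of 221 CPM in PP-cells (165 to 360 CPM, 3 genes at 0) and 170 CPM in α-cells (124 to 228 CPM), and the 8 stellate genes to 1032 CPM in the PP-cells of old female 1 (median 14.9 CPM), and their part in the MLPH levels was not tested.

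EXPH5 and SYTL4 were the members with the fewest UMIs. EXPH5 was found in 11.2% of α-cells, 16.4% of β-cells, 11.6% of δ-cells and 2.7% of PP-cells, and after thinning in 5.56%, 8.24%, 7.14% and 1.35%. Its median was 8.94 CPM in α-cells (4.39 to 24.6 CPM), 12.6 CPM in β-cells (0 to 39.1 CPM) and 2.13 CPM in δ-cells (0 to 41.7 CPM), and in PP-cells 5 of 6 animals had no UMI and young male 4 had 12.8 CPM. The 33 PP-cells of old female 2 without a UMI allow up to 2 CPM. The limits were wider in old female 1 (6.17 CPM), young male 1 (8.07 CPM), old male 4 (8.54 CPM) and old male 2 (14.4 CPM). These wider limits reach into the β-cell range of the same 6 animals (5.31 to 28.9 CPM). EXPH5 was called lower in PP-cells than in β-cells (log2 fold change −3.09 ± 0.98, edgeR adjusted p = 0.0224), with 6 of 6 animals lower. The call was lost without old female 1 (adjusted p = 0.0550), old female 2 (0.0601), old male 2 (0.0510) or old male 4 (0.0522), with a highest hormone at least 2 times the next (0.0916) and after thinning (0.125), and the fit against α-cells stood at the threshold (adjusted p = 0.0503). SYTL4 was found in 2.62% of α-cells, 5.91% of β-cells, 3.57% of δ-cells and 2.7% of PP-cells, with a median of 1.30 CPM in α-cells (0 to 6.31 CPM), 2.97 CPM in β-cells (0 to 9.86 CPM) and 0 CPM in δ- and PP-cells. It was higher in β-cells than in α-cells in 12 of 16 animals, without passing the threshold (1.25 ± 0.58, edgeR adjusted p = 0.111), and no other pair passed (adjusted p between 0.0850 and 0.990). All δ-cells together held 5 UMIs of SYTL4 and all PP-cells 4. Against β-cells, SYTL4 was higher in 0 of 11 animals in δ-cells (−2.13 ± 0.90, edgeR adjusted p = 0.0850) and in 0 of 6 in PP-cells (−2.07 ± 1.09, edgeR adjusted p = 0.191). The limits in animals without a UMI ran from 4.35 to 14.5 CPM in δ-cells and from 6.17 to 14.4 CPM in PP-cells. They lie above the β-cell median of 2.97 CPM, so these counts cannot tell a lower level from too few UMIs. Old male 4 had no SYTL4 UMI in β-cells either.

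Counted over the set, 3 of 9 members were called between β- and α-cells, where 25% of 12899 genes tested were called. The counts were 3 of 9 for δ- against α-cells (23.2% of all genes), 1 of 9 for PP- against α-cells (6.61%), 2 of 9 for δ- against β-cells (19.8%), 4 of 9 for PP- against β-cells (17.2%) and 3 of 9 for PP- against δ-cells (10.3%). The median log2 fold change of the members was 0.00 for β- against α-cells, beside −0.11 over all genes tested, and −0.34 beside −0.47 for δ- against α-cells, −0.28 beside −0.37 for PP- against α-cells, −0.26 beside −0.35 for δ- against β-cells, −0.75 beside −0.26 for PP- against β-cells and 0.07 beside 0.09 for PP- against δ-cells. With DESeq2 the median over all genes was −0.20 for δ- against α-cells, −0.13 for PP- against α-cells, −0.02 for δ- against β-cells and 0.03 for PP- against β-cells. Relative to the median gene, the called members were SNAP25 0.79, RAB27A 0.97 and RIMS2 −0.90 for β- against α-cells, and STX1A −0.50, RAB3A −0.66 and RAB27A 1.96 for δ- against α-cells. All calls made by edgeR between types were also made by DESeq2 in the same direction, and DESeq2 called 4, 4, 2, 4, 4 and 4 members in the 6 comparisons in the order given.

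**Figure D2:**
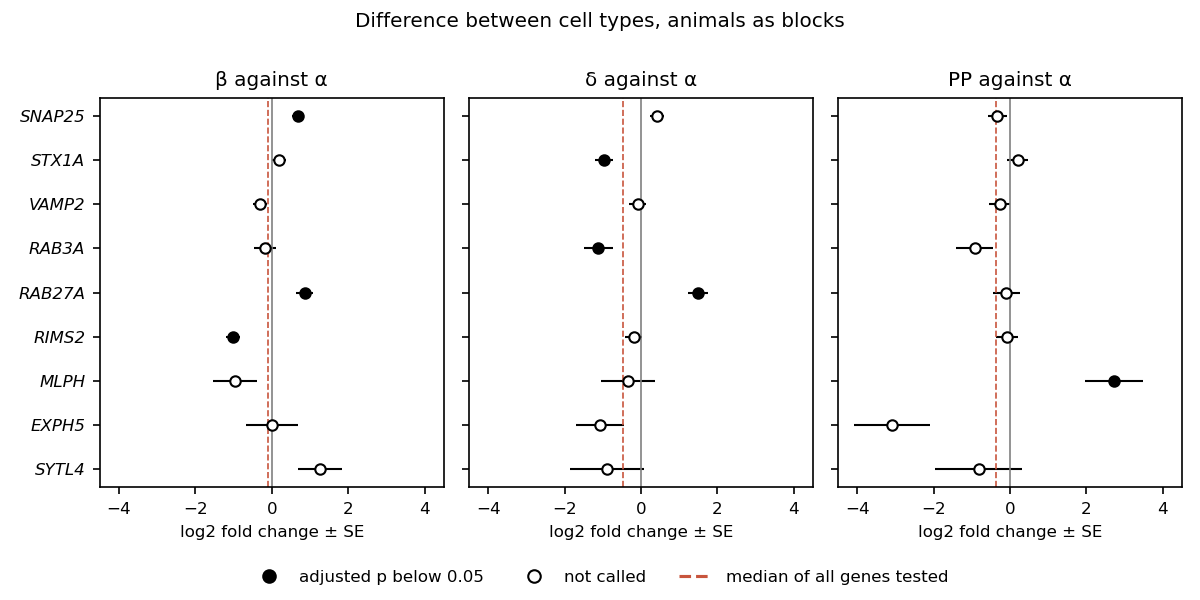
Log2 fold change with its SE (bars) of each gene in β-, δ- and PP-cells against α-cells, where filled points passed an adjusted p of 0.05 and the dashed line is the median of all genes tested. RAB27A lies to the right in β- and δ-cells (0.86 and 1.5), RIMS2 to the left in β-cells (−1.02), and MLPH to the right in PP-cells (2.71).

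Of 82 other genes of the fusion and docking machinery, 77 were in the files and 67 were tested between types. They fell in 4 lists, other SNAREs, SNARE regulators and priming factors, other Rab3 and Rab27 GTPases with their regulators, and other Rab effectors and active-zone scaffolds. Between β- and α-cells 5 of 67 were higher (8.66% of all genes tested were) and 10 lower (16.3%). Other SNAREs (19 tested) had 2 higher and 0 lower and a median log2 fold change of 0.41, beside −0.11 over all genes tested. VAMP5 had 51.5 CPM in β-cells and 10.7 CPM in α-cells (log2 fold change 2.17 ± 0.38, edgeR adjusted p = 9.73e-06), and VAMP8, an endosomal and granule SNARE, had 338 and 208 CPM (0.69 ± 0.13, edgeR adjusted p = 3.11e-05). SNARE regulators (19 tested) had 2 higher and 4 lower. The complexin CPLX1, which clamps assembled SNAREs, had 11.5 CPM in β-cells and 55.1 CPM in α-cells (−2.26 ± 0.30, edgeR adjusted p = 4.43e-08), and BAIAP3, a Munc13-related protein, had 51.4 and 112 CPM (−1.23 ± 0.23, edgeR adjusted p = 4.03e-05). STXBP5 (tomosyn), which competes for SNARE pairing, had 20.6 and 34.8 CPM (−0.82 ± 0.28, edgeR adjusted p = 0.0243).

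Among Rab GTPases and regulators (12 tested between types), 1 was higher and 1 lower in β-cells. RAB3B, a relative of RAB3A, had 11.6 CPM in β-cells and 46.3 CPM in α-cells (log2 fold change −2.28 ± 0.41, edgeR adjusted p = 1.52e-05), while RAB3A itself did not pass. RAB3IP, an exchange factor of Rab8, had 79.6 and 34.6 CPM (1.17 ± 0.31, edgeR adjusted p = 0.00309). Rab effectors and scaffolds (17 tested) had 0 higher and 5 lower in β-cells with a median of −0.45, where over all genes 8.66% were higher and 16.3% lower with a median of −0.11. RPH3AL (Noc2), which binds Rab3 and Rab27, had 2.96 CPM in β-cells and 12.3 CPM in α-cells (−2.32 ± 0.50, edgeR adjusted p = 0.000288).

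Between δ- and α-cells 1 of the 67 genes was higher (4.36% of all genes tested) and 12 lower (18.9%). The higher one was PPFIA2, a liprin of release sites, with 42 CPM in δ-cells and 10.2 CPM in α-cells (log2 fold change 2.47 ± 0.59, edgeR adjusted p = 0.00175). Of the other scaffolds and effectors, MYO5C, a class V myosin, had 6.67 and 55.3 CPM (−3.37 ± 0.55, edgeR adjusted p = 6.39e-06), and RPH3AL (−2.23 ± 0.73), the liprin PPFIA1 (−1.27 ± 0.37) and the Rab27 effector SYTL1 (−1.09 ± 0.40) were lower as well, with edgeR adjusted p of 0.0210, 0.0103 and 0.0399. CPLX1 had 8.07 and 55.1 CPM (−2.88 ± 0.41, edgeR adjusted p = 4.13e-07). TBC1D10A, a GTPase-activating protein of Rab27, had 3.31 and 15.1 CPM (−2.86 ± 0.60, edgeR adjusted p = 0.000334), RAB3B 20.7 and 46.3 CPM (−1.78 ± 0.51, edgeR adjusted p = 0.00852) and TBC1D10B 12.2 and 29.9 CPM (−1.66 ± 0.45, edgeR adjusted p = 0.00554). Of the other SNAREs, the endosomal syntaxin STX12 was lower (32.8 and 49.3 CPM, −0.99 ± 0.37, edgeR adjusted p = 0.0472).

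Against β-cells, δ-cells had 4 genes higher (5.26%) and 8 lower (14.5%). TBC1D10A had 3.31 CPM in δ-cells and 25.9 CPM in β-cells (log2 fold change −3.57 ± 0.59, edgeR adjusted p = 9.01e-06), MYO5C 6.67 and 49.4 CPM (−3.29 ± 0.55, edgeR adjusted p = 1.11e-05) and SYTL1 17.7 and 52.2 CPM (−1.65 ± 0.40, edgeR adjusted p = 0.00201). RAB3IP was lower too (49.8 and 79.6 CPM, −1.05 ± 0.39, edgeR adjusted p = 0.0498). All 3 called genes of the other SNAREs were lower in δ-cells, VAMP5 at −2.62 ± 0.53, STX12 at −1.14 ± 0.38 and VAMP8 at −0.56 ± 0.15 (edgeR adjusted p = 0.000251, 0.0265 and 0.00702), as was NAPA, the SNARE disassembly cofactor α-SNAP, at −0.75 ± 0.23 (adjusted p = 0.0182). Among the higher genes, PPFIA2 had 42 and 8.09 CPM (3.05 ± 0.63, edgeR adjusted p = 0.000264) and BAIAP3 174 and 51.4 CPM (1.68 ± 0.28, edgeR adjusted p = 8.57e-06). Of all calls, 18.8% by edgeR and 37.6% by DESeq2 were higher in δ- than in α-cells, and 26.6% and 49.3% in δ- than in β-cells.

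PP-cells had 2 of the 67 genes higher than α-cells (1.78%) and 2 lower (4.82%), 8 higher than β-cells (6.67%) and 4 lower (10.6%), and 7 higher than δ-cells (6.51%) and 1 lower (3.83%). All calls of PP-cells rest on 6 animals, of which old female 2 alone gave 33 PP-cells. For these other genes the calls were not followed in fits that left out an animal. PCLO (piccolo), an active-zone scaffold, had 336 CPM in PP-cells, above α-cells (121 CPM, log2 fold change 1.27 ± 0.30, edgeR adjusted p = 0.00549), β-cells (163 CPM, adjusted p = 0.0320) and δ-cells (159 CPM, adjusted p = 0.00628). STXBP6 (amisyn) had 11.3 CPM in PP-cells and between 0.556 and 2.46 CPM in the other types, with edgeR adjusted p between 0.00226 and 0.0288. RAB3B was lower in PP- than in α-cells (9.47 and 46.3 CPM, −2.65 ± 0.72, edgeR adjusted p = 0.0179).

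Against β-cells, the 4 lower genes were the SNAREs VAMP5 (11.9 CPM in PP- and 51.5 CPM in β-cells, log2 fold change −2.09 ± 0.68), VTI1B (14.2 and 61.2 CPM, −1.93 ± 0.49) and VAMP8 (206 and 338 CPM, −0.57 ± 0.20), with edgeR adjusted p of 0.0272, 0.00409 and 0.0401, and NAPA (42.9 and 96.2 CPM, −0.98 ± 0.31, edgeR adjusted p = 0.0220). Higher than in β-cells were CPLX1 (59.4 and 11.5 CPM, 2.21 ± 0.45, edgeR adjusted p = 0.000368), RPH3AL (25.8 and 2.96 CPM, 3.25 ± 0.73, edgeR adjusted p = 0.0011) and RIMS1 (21.6 and 0.0460 CPM, edgeR adjusted p = 7.82e-05). STXBP4, which binds syntaxin 4, had 42.9 and 8.39 CPM (2.08 ± 0.60, edgeR adjusted p = 0.0124) and STXBP5 60.2 and 20.6 CPM (1.59 ± 0.42, edgeR adjusted p = 0.00526). Against δ-cells, BAIAP3 was the lower gene (69.1 and 174 CPM, −1.37 ± 0.39, edgeR adjusted p = 0.0164), and CPLX1 (2.83 ± 0.52), RPH3AL (3.16 ± 0.87), TBC1D10A (3.09 ± 0.79), MYO5C (2.28 ± 0.75) and STXBP5 (1.48 ± 0.47) were higher, with edgeR adjusted p between 0.000149 and 0.0412. Of all calls, 27% by edgeR and 42.5% by DESeq2 were higher in PP- than in α-cells, and 38.7% and 54.2% in PP- than in β-cells.

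Age was compared within each type, with sex in the model. In β-cells of the 8 young animals MLPH had 0, 0.107, 0.519, 0.931, 1.43, 3.21, 3.92 and 5.66 CPM, and in those of the 8 old animals 1.21, 2.91, 11.4, 16.2, 42.5, 44.3, 50.6 and 51.6 CPM. Thus 6 of 8 old animals lay above every young one, and old males 4 and 2 lay within the young range. The means were 1.97 ± 2.06 CPM in young and 27.6 ± 21.7 CPM in old animals (SD, n = 8), a ratio of 14, which ran between 12.2 and 19.1 with each animal left out in turn. The edgeR log2 fold change was 3.82 ± 0.76 and ran between 3.47 and 4.36 with each animal left out. Since MLPH was taken to be chosen by this difference, neither the SE nor these ranges test it, here or in the other types. Females alone (4 against 4) had means of 2.71 and 30.6 CPM and males 1.24 and 24.5 CPM. In sums per animal, fewer cells with the gene and less RNA per cell cannot be told apart, so cells were also counted. In young β-cells 8.77% had an MLPH UMI (47 of 536 cells, 95% exact binomial interval 6.51% to 11.5%) and in old β-cells 35.6% (243 of 683, 32% to 39.3%), at median depths of 64783 and 81435 UMIs. The intervals pool the cells of all animals and cover counting error only, not the spread between animals. Old females 4 and 1 gave 194 and 145 of the 683 old β-cells. Thinned to 10000 UMIs the shares were 2.63% and 14.4%. Cells with the gene held a median of 1 UMI in young and 3 UMIs in old β-cells.

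In α-cells the same direction was seen with more overlap. Young animals had 0, 1.18, 3.50, 4.21, 8.13, 13.3, 21.9 and 25.2 CPM of MLPH, and old animals 6.66, 7.46, 14.1, 18.9, 32.7, 33.9, 38.6 and 41 CPM. Here 4 of 8 old animals lay above every young one, and young females 1, 2 and 4 and young male 2 lay within the old range. The means were 9.68 ± 9.56 and 24.1 ± 14 CPM (SD, n = 8), a ratio of 2.50 that ran between 2.18 and 3.23 with each animal left out, with a log2 fold change of 1.51 ± 0.70 (1.26 to 2 with each animal left out). Females alone had means of 14.7 and 25.1 CPM and males 4.68 and 23.2 CPM. The share of α-cells with an MLPH UMI was 15.3% in young (357 of 2331) and 31.3% in old animals (679 of 2172) at median depths of 65163 and 64320 UMIs, and 5.89% and 12.2% after thinning. The age difference of β-cells exceeded that of α-cells by 2.23 ± 0.81 on the log2 scale. In young animals MLPH was lower in β- than in α-cells in 7 of 8 animals and at 0 in both types of young male 3, while β-cells were higher in 5 of 8 old animals.

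**Figure D3:**
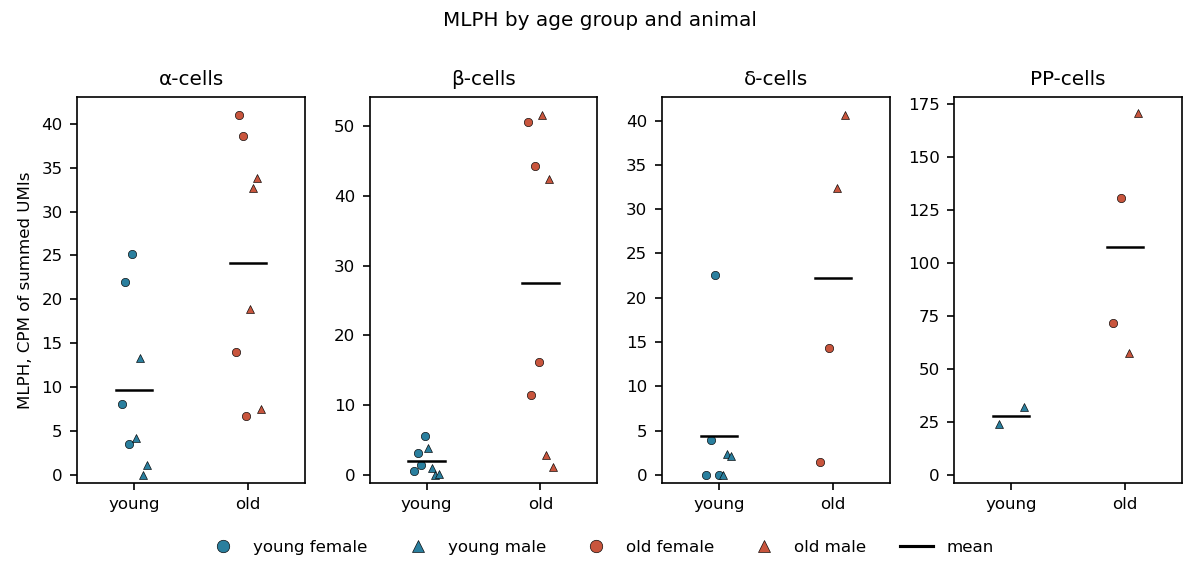
MLPH in CPM in each animal (points, coloured by age and shaped by sex, with the mean as a bar) in the 4 cell types, each with its own axis. In β-cells 6 of 8 old animals lie above all young ones, in α-cells 4 of 8, and PP-cells had 2 young and 4 old animals that do not overlap.

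Young male 3 had no MLPH UMI in 280 α-cells (17798445 UMIs, which allows up to 0.169 CPM at a limit of 3 counts) and none in 44 β-cells (up to 1.22 CPM), in all 4 of its libraries, and 1 UMI in its δ-cells. Its median depth was 40069.5 UMIs in α-cells and 30098.5 UMIs in β-cells, the lowest of the 16 animals in both types. Without this animal the young means were 11.1 CPM in α-cells and 2.25 CPM in β-cells. Libraries of an animal spread as well. The 4 libraries of old female 1 ran from 0.228 to 29.3 CPM in α-cells and from 19.7 to 83.3 CPM in β-cells, and those of old female 3 from 35.4 to 42.6 CPM in α-cells. In δ-cells the young animals had a median of 2.13 CPM (0 to 22.6 CPM, n = 7) and the old 1.42, 14.3, 32.4 and 40.6 CPM, which overlapped, and MLPH did not pass the filter on low counts there. In PP-cells young males 1 and 4 had 24.2 and 31.9 CPM, and the 4 old animals 57.5 to 171 CPM, without overlap. The young animals gave 6 and 8 PP-cells, both were males, and the log2 fold change of 2.12 ± 1.07 fell to 1.18 ± 1.34 without old male 4 and to 1.15 ± 1.32 where the highest hormone had to be at least 2 times the next.

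Levels of hormones and of other cells' markers in young and old animals were set beside MLPH, without a test. PPY in β-cells had a median of 159 CPM in young (14.7 to 2045 CPM) and 392 CPM in old animals (31.2 to 4507 CPM), and in α-cells 311 CPM (58.3 to 2174 CPM) and 862 CPM (88.4 to 4794 CPM), and its part in the MLPH difference was not tested. SST went the other way, with medians of 605 CPM in young and 257 CPM in old β-cells and of 659 and 328 CPM in α-cells. In β-cells INS had medians of 66186 CPM in young and 55683 CPM in old animals and GCG 24377 and 18472 CPM, and in α-cells GCG had 75335 and 75040 CPM and INS 6038 and 7279 CPM. The age groups overlapped for each of these hormones. The ductal marker list (11 of 11 genes in the files) summed to 172 CPM in young β-cells (133 to 249 CPM) and 150 CPM in old β-cells (125 to 261 CPM), with 2 of the 11 genes at 0 in each, and to 155 CPM (124 to 189 CPM) and 198 CPM (137 to 228 CPM) in α-cells, with 0 and 1 genes at 0. In old β-cells with an MLPH UMI the ductal sum was 174 CPM and in those without 148 CPM, at median depths of 94244 and 74895 UMIs. In young β-cells it was 180 and 166 CPM. In α-cells it was 209 CPM in old cells with an MLPH UMI and 185 CPM in those without, and in young α-cells the order was the other way, at 143 and 159 CPM. Immune markers were highest in the α-cells of young male 3 (97.8 CPM, median of all animals 10.1 CPM), the animal without MLPH. What part these lists had in the levels of MLPH was not tested.

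**Figure D4:**
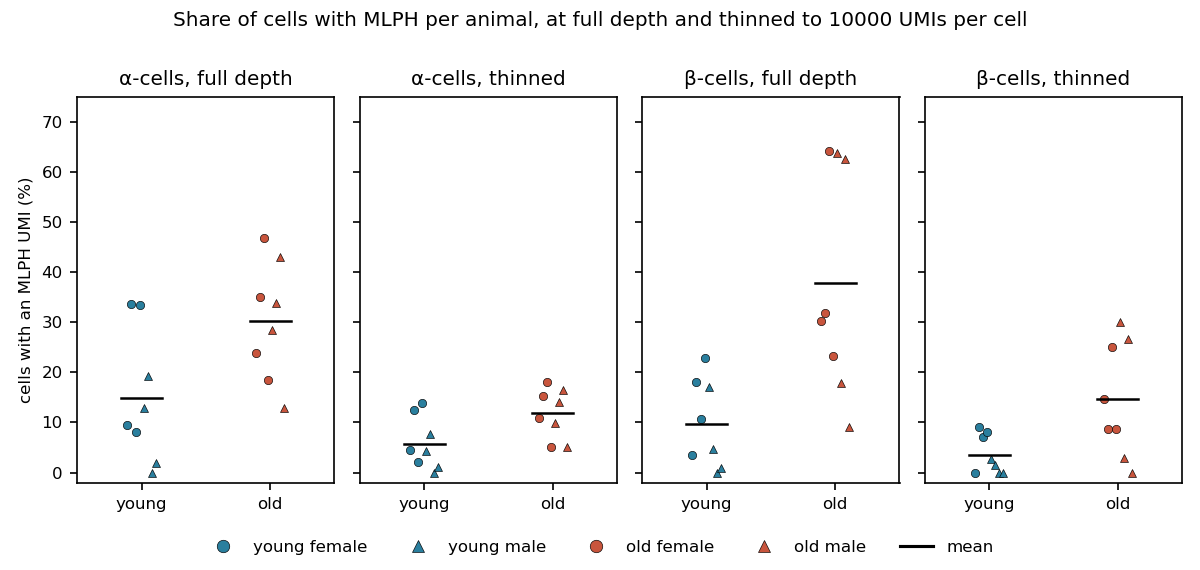
Percent of α- and β-cells with an MLPH UMI in each animal (points by age and sex, bar at the mean over animals), at full depth and with every cell thinned to 10000 UMIs. Shares fall with thinning, and the old animals keep the higher mean in both types.

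The 5 genes whose levels over the 16 animals ran most like MLPH, by the lower of the correlations in α- and β-cells among 7369 genes with at least 10 CPM in both types, were GUCY1B3, SLC38A10, CYB561, ENSMFAG00000043037 and DNM1. GUCY1B3, a subunit of soluble guanylate cyclase, had Pearson r of 0.73 in α-cells and 0.62 in β-cells (Spearman rho 0.59 and 0.64), and the lower r of the others was between 0.58 and 0.60. CYB561, a cytochrome of secretory granule membranes, had a mean of 18.7 CPM in young and 49.9 CPM in old β-cells. These genes were picked for the likeness, the correlations run over young and old animals together, the points share the animals and their libraries, and the values describe these 16 animals only.

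The other 8 members showed no age difference that passed the test. In α-cells edgeR called 0 of 8 at an adjusted p of 0.05 (0% of 12916 genes tested), 2 of 8 had an unadjusted p under 0.05 (6.86% of all genes), and DESeq2 called 0 of 8 (0.186% of all genes). In β-cells edgeR called 0 of 8 (0.047% of 10628 genes), 0 of 8 had an unadjusted p under 0.05 (5.54%), and DESeq2 called 0 of 8 (0.367%). The median log2 fold change of these 8 was 0.20 in α-cells, beside −0.00 over all genes tested, and 0.02 in β-cells, beside −0.01.

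SNAP25 gave nearly equal means at both ages. Its α-cell mean was 200.05 ± 39.6 CPM in young and 199 ± 31.4 CPM in old animals (SD, n = 8; log2 fold change −0.03 ± 0.13, edgeR adjusted p = 0.971), and its β-cell mean 316 ± 36.8 and 319 ± 28.4 CPM (−0.01 ± 0.13, edgeR adjusted p = 0.999). STX1A had 117 ± 29.5 and 134 ± 44.2 CPM in α-cells (0.18 ± 0.16, edgeR adjusted p = 0.856) and 135 ± 47.4 and 148 ± 39.3 CPM in β-cells. For both genes the age groups overlapped over most of their range.

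VAMP2 and RIMS2 had the members' smallest unadjusted p for age in α-cells. VAMP2 in α-cells had a lowest, median and highest value of 42.4, 59.7 and 73.5 CPM in young and 55, 69.3 and 95.8 CPM in old animals (log2 fold change 0.26 ± 0.12, edgeR adjusted p = 0.721). RIMS2 had 86.4, 95.8 and 147 CPM in young and 101, 117 and 139 CPM in old α-cells (0.21 ± 0.10, edgeR adjusted p = 0.721). Of the 8 old animals, 7 lay above the young median for VAMP2 and 8 for RIMS2, and the ranges of both genes overlapped.

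RAB3A in β-cells had 21.5, 43.2 and 51.4 CPM in young and 21.9, 27.7 and 41.8 CPM in old animals. All 8 old animals lay below the young median, and the groups overlapped through young female 3, young male 4 and young female 4 at 21.5, 27.6 and 37.6 CPM (log2 fold change −0.49 ± 0.24, edgeR adjusted p = 0.908). In α-cells RAB3A had 21.3, 35.8 and 57.6 CPM in young and 27.9, 43.7 and 51.3 CPM in old animals (0.16 ± 0.17, edgeR adjusted p = 0.882). RAB27A had 41.3 ± 9.48 and 44.7 ± 9.36 CPM in α-cells and 76.7 ± 21.3 and 81.6 ± 24.1 CPM in β-cells (SD, n = 8), with log2 fold changes of 0.12 ± 0.16 and 0.06 ± 0.21. The effectors EXPH5 and SYTL4 had fold changes of 0.31 ± 0.34 and 1.01 ± 0.78 in α-cells and −0.33 ± 0.58 and 0.05 ± 0.68 in β-cells, with overlapping age groups.

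**Figure D5:**
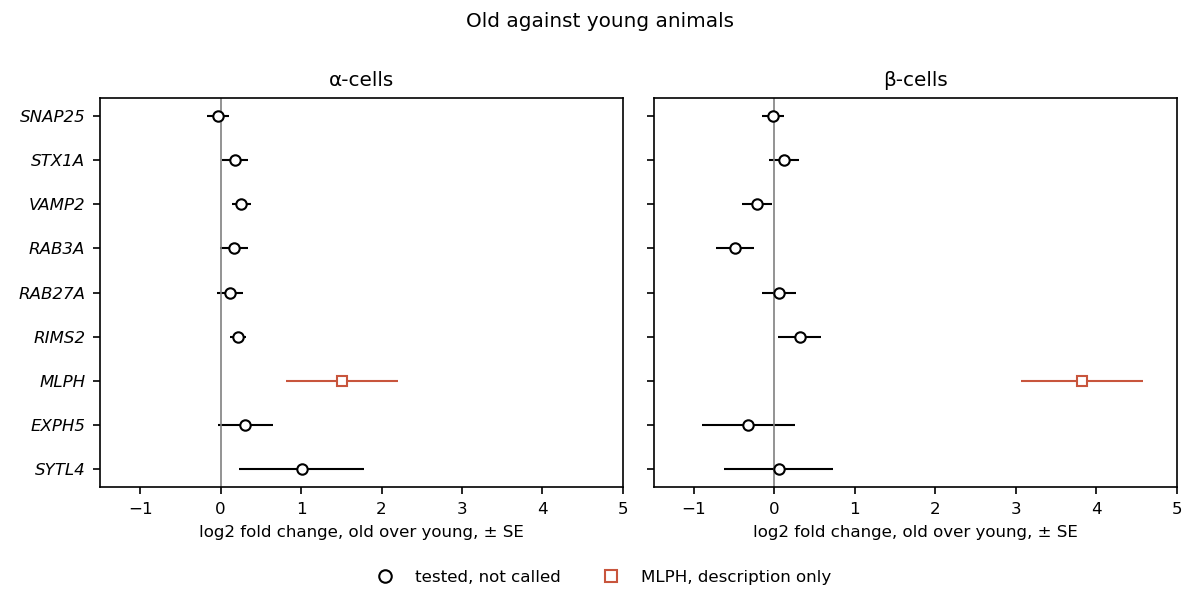
Log2 fold change of old over young animals with its SE (bars) for each gene in α- and β-cells, where circles were tested and not called and the square is MLPH, shown as a description. MLPH lies at 1.51 and 3.82, RAB3A in β-cells at −0.49, and the other members but SYTL4 in α-cells (1.01) between −0.33 and 0.32.

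Whether the age difference itself differed between β- and α-cells was tested with the animal as a block. edgeR called 0 of 8 members (0% of 13322 genes), DESeq2 0 of 8 (0.0751%), and 2 of 8 had an unadjusted p under 0.05 (6.05% of all genes). These were RAB3A (−0.66 ± 0.26, unadjusted edgeR p = 0.0176, adjusted p = 0.733) and VAMP2 (−0.46 ± 0.18, unadjusted edgeR p = 0.0194, adjusted p = 0.739). In δ-cells 6 of the 8 passed the filter on low counts and edgeR called 0 (0% of 6484 genes), with 0 of 6 at an unadjusted p under 0.05 (3.22%) and 0 by DESeq2 (0.0463%). In PP-cells 5 of 8 passed and edgeR called 0 (0% of 6568 genes), with 0 of 5 at an unadjusted p under 0.05 (6%) and 0 by DESeq2 (0.0152%). With 7 against 4 and 2 against 4 animals and few cells, errors there reached 0.85 in δ-cells and 1.44 in PP-cells on the log2 scale.

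Sexes were compared over 8 females and 8 males. In α-cells edgeR called 0 of 9 members (0% of 12916 genes), 1 had an unadjusted p under 0.05 (5.83% of all genes), and DESeq2 called 0 (0.201%). In β-cells edgeR called 0 of 9 (0% of 10628 genes), 1 had an unadjusted p under 0.05 (3.99%), and DESeq2 called 0 (0.113%). In both types that gene was STX1A. In α-cells it ran through 87.9, 142 and 209 CPM (lowest, median, highest) in females and 72.2, 102 and 143 CPM in males (male against female −0.55 ± 0.16, unadjusted edgeR p = 0.00275, adjusted p = 0.536), and in β-cells through 92.5, 169 and 221 CPM in females and 75.9, 115 and 171 CPM in males (−0.51 ± 0.19, unadjusted edgeR p = 0.0125, adjusted p = 1). α- and β-cells of an animal share their libraries and are not independent. MLPH was not called between sexes, at −0.90 ± 0.69 in α-cells and −0.62 ± 0.69 in β-cells. For the interaction of sex and age, edgeR called 0 of 8 members in α-cells (0.00707% of 14146 genes) and 0 of 8 in β-cells (0% of 11693 genes), with 1 and 0 members at an unadjusted p under 0.05 (5.61% and 4.23% of all genes) and none by DESeq2 (0.0566% and 0.0171%). The 1 was EXPH5 in α-cells (1.36 ± 0.60, unadjusted edgeR p = 0.0360, adjusted p = 0.877).

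None of the other genes of the fusion and docking lists was called for age. Tested were 65 in α-cells, 57 in β-cells, 34 in δ-cells and 45 in PP-cells, and edgeR and DESeq2 called 0 in each type. In α-cells 3 other SNAREs, 3 SNARE regulators and 0 genes of the other 2 lists had an unadjusted p under 0.05, in β-cells 1 gene of each list had, and over the 4 lists 1 gene had in δ-cells and 3 in PP-cells. These were 6 of 65 in α-cells (6.86% of all genes), 4 of 57 in β-cells (5.54%), 1 of 34 in δ-cells (3.22%) and 3 of 45 in PP-cells (6%), counts near those shares. The medians of the 4 lists were −0.12, 0.00, 0.07 and 0.13 in α-cells, beside −0.00 over all genes, and 0.16, 0.05, 0.07 and 0.08 in β-cells, beside −0.01. The difference of the age effect between β- and α-cells, the sex difference and the interaction of sex and age also gave 0 calls among these genes by edgeR and DESeq2, with at most 2 genes at an unadjusted p under 0.05 in each, where between 3.99% and 6.05% of all genes had one.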

How the data were processed

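Single islet cells of 16 monkeys in 64 libraries were analysed. The labels name a modified SMART-seq2 protocol and the study a modified STRT protocol. The submitters' processing notes name CASAVA 1.8 and TopHat2 2.0.12. The authors aligned reads to Macaca_fascicularis_5.0, assigned reads with a unique position to genes, took each UMI once, and deposited the UMI counts per gene and cell without normalization. Coordinates and sequences are not given, since no genome of that build was used here. The 9 members and all gene lists were chosen with earlier results of these data known. The 95 spike-in RNAs were left out.

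The cell filter kept those above 800 genes and 10000 UMIs, and the study's filter on mapping rate was not used. Doublets were not called, and an alternative left out cells above the 95th percentile of UMIs of their library. UMI counts were summed per animal and type (at least 5 cells) and differences were tested in R 4.3.3 with the package edgeR 4.0.16 (filterByExpr, TMM, quasi-likelihood test, Benjamini-Hochberg adjustment over all genes tested, threshold 0.05), with the animal as a block between types and sex as a covariate for age. The SE of an edgeR log2 fold change is its absolute value divided by the square root of the F statistic of that test. DESeq2 1.42.0 was the other tool. The test was checked on simulated counts. CPM are per 1000000 UMIs of macaque genes, and a limit for no UMI is 3 counts over the UMIs of that animal and type. UMI levels are compared within a gene only. Other alternatives were no filter on low counts, each animal left out, other definitions of type, hormones taken out of the counts, thinning to 10000 UMIs, a stricter cell filter, at least 10 cells, and fits with and without blocks and covariates. The genes named outside the set are up to 5 per list and pair of types with the largest change among those called with at least 10 CPM in one type.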

Additional observations from a re-analysis of the deposited data

Results flagged for a closer look

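The levels of the 9 members were checked in 62 groups of 4 to 10 animals (1 gene, type and age group each) for a lowest or highest animal whose gap to its neighbour took more of the range than Dixon's 95% critical value. This held in 9 groups. The critical value assumes normally distributed levels, and a group with UMIs in 1 animal only passes by construction. The number expected by chance is therefore not known. SNAP25 in old α-cells was 269 CPM in old female 1, above 201 CPM in the next animal. RAB3A in old β-cells was 41.8 CPM in old male 1, above 30.9 CPM. RAB27A in old β-cells was 136 CPM in old female 3, from 28 cells, above 92 CPM. RIMS2 in young α-cells was 147 CPM in young male 4, above 112 CPM. MLPH in young δ-cells was 22.6 CPM in young female 3, from 13 UMIs in 11 cells, above 3.93 CPM. EXPH5 in young α-cells was 24.6 CPM in young female 3, above 13.6 CPM. EXPH5 in young δ-cells was 41.7 CPM in young female 1, from 23 UMIs, above 13.9 CPM. SYTL4 in young δ-cells was 1.81 CPM in young female 1 from 1 UMI, and in old PP-cells 2.001 CPM in old female 2 from 3 UMIs, where the other animals had none.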

How the results depend on the processing

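The number of members called stayed within 1.5 times the reported count in 349 refits, rose above it in 10 and fell below it in 7, and no member's called change reversed. The 349 include all refits for age, for the age effect of β- against α-cells, for sex and for sex by age. In those the number of members called was 0 under every alternative run, so that it rose or fell between types only. For PP- against α-cells (1 member) it was 2 with DESeq2, without cells under 10000 CPM of their hormone, and with over 2000 genes and 20000 UMIs, and 0 with a highest hormone at least 2 times the next and with at least 10 cells per animal. For δ- against β-cells (2) it was 4 with DESeq2, with a highest hormone at least 2 times the next and after thinning. For PP- against β-cells (4) it was 2 with a highest hormone at least 2 times the next and 0 with at least 10 cells, and for PP- against δ-cells (3) it was 1 with at least 10 cells, which leaves PP-cells of 1 animal. The other causes were not tested. With each animal left out, these 4 counts ran from 0 to 2, 2 to 3, 2 to 5 and 3 to 5.

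Over all genes, DESeq2 called 1359 against 852 by edgeR for PP- against α-cells and 2103 against 1334 for PP- against δ-cells. At least 10 cells gave 5135 against 3222 for β- against α-cells, 47 for PP- against α-cells, 372 against 2221 for PP- against β-cells and 272 for PP- against δ-cells, where thinning gave 685 and no animal block 2269. For age in β-cells (5 genes), no filter gave 21, DESeq2 39, leaving out possible doublets 2, thinning 1, and leaving out an animal 2 to 8. Without a filter, 23 genes were called for sex and 1 for sex by age in β-cells, and 3 in δ-cells and 9 in PP-cells for age. At least 10 cells gave 3 for age in δ-cells, no sex covariate 1 for age in PP-cells, and leaving out an animal 0 to 10 there, 0 to 2 for sex in β-cells, 0 to 1 for sex in α-cells, 0 to 1 for the age effect of β- against α-cells, 1 to 2 for sex by age in α-cells and 0 to 1 in β-cells.

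Young and old animals share numbers within a sex. Same-numbered animals deviated with correlations of −0.08 to 0.13. Of 8 old animals, 4 in α-cells and 3 in β-cells matched their own number best among the 4 young animals of their sex. Some best matches arise by chance there, so the check cannot settle whether animals share more than the number. A replicate block on it gave 0 members for age in α-, β- and δ-cells, and 0, 6 and 0 genes over all. It could not be fitted in PP-cells, nor could age there with at least 10 cells. Without the animal block between types, 3, 4, 1, 2, 4 and 4 members were called. The fewest UMIs were those of SYTL4 in δ-cells (5) and PP-cells (4) and of EXPH5 in PP-cells (6). With every cell thinned to 10000 UMIs the calls of EXPH5 for PP- against β-cells and of STX1A for PP- against δ-cells were lost, and RAB3A and RAB27A for δ- against β-cells and SNAP25 for PP- against δ-cells were called.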
